A study of Homo sapiens with 4 samples.

Results

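The 10 serine, glycine and one-carbon enzymes described here are PHGDH, PSAT1, PSPH, SHMT1, SHMT2, MTHFD1, MTHFD2, MTHFD1L, ALDH1L2 and ALDH18A1. They were taken by gene symbol from the deposited count tables, which hold 24462 genes after repeated symbols were summed, and all 10 were found, each listed once. Expression was measured in HepG2, a cell line established from a human liver tumor, with 1 library for each of 4 conditions: DMSO (the solvent control), PD0332991 (an inhibitor of the CDK4 and CDK6 kinases), scrambled siRNA (the transfection control) and CDK4/6 KD (siRNA against both CDK4 and CDK6, called the knockdown in what follows). All 4 cultures were grown in RPMI with fetal bovine serum, and the dose, exposure and transfection times behind the libraries are not given in the sources used here. CDK4/6 KD was compared with scrambled siRNA, and PD0332991 with DMSO, to ask how the mRNA of these enzymes differed when CDK4/6 was lowered or inhibited.

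Serine is made from the glycolytic intermediate 3-phosphoglycerate by PHGDH, PSAT1 and PSPH in turn. SHMT1 in the cytosol and SHMT2 in mitochondria split serine into glycine and a carbon unit carried by tetrahydrofolate (THF). In mitochondria the carbon unit is oxidized by MTHFD2 and released as formate by MTHFD1L. In the cytosol MTHFD1 takes formate up again for purine and thymidylate synthesis, which dividing cells need in quantity. ALDH1L2 burns the mitochondrial unit to carbon dioxide while making NADPH, and ALDH18A1 stands apart from this cycle, since it starts proline synthesis from glutamate. Many of these genes are known targets of ATF4, the transcription factor of the amino acid response.

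Library totals ran from 8983848 to 11176880 reads, and levels are CPM, reads scaled to a common library total after correction with TMM factors. Each condition had 1 library, so differences could not be set against replicate error and carry no p-value. The 95% interval of each fold change is the exact Clopper-Pearson interval on how a gene's reads split between the libraries compared, so it covers counting error only and compares libraries, not conditions. The sources used here name no molecular identifiers, so PCR copies may count more than once. Cultures were sequenced in bulk, where fewer cells of a type and less RNA per cell cannot be told apart. CDK4 was at 354 CPM in scrambled siRNA and 71.9 in the knockdown, and CDK6 at 536 and 129. All 12 hepatocyte markers checked, albumin among them, had at least 10 reads in every library. Of 20 markers of keratinocytes, another epithelial cell type, 4 had at least 10 reads in DMSO, 13 in PD0332991, 11 in scrambled siRNA and 10 in the knockdown. Reads of SFN and KRT10 lay between 514 and 3266 in every library. Without them, the summed level of this list was 11.9, 107, 23.6 and 26.3 CPM in that order, with KRT14 the highest in PD0332991. The defining markers were KRT5, KRT14 and TP63. KRT5 had 2 reads in DMSO, 113 in PD0332991, 13 in scrambled siRNA and 43 in the knockdown. KRT14 had 9, 249, 31 and 74 reads in that order, while TP63 had at most 1 read in any library. The part of this signal in the values below was not tested.

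To show the regulatory sequence beside the values, the 250 bases before the transcription start were read from RefSeq for the 7 members that matched by symbol. A pair of motifs was looked for on both strands after the expression values were known. The first was TGATGNAAN, the amino acid response element bound by ATF4 with C/EBP proteins, which 3.13% of all 35116 promoter windows held. The second was CACGTG, the E box bound by MYC with MAX and by USF factors, which 6.34% held. The motifs do not overlap in any sequence shown, and capitals mark the matches. MTHFD1 and ALDH18A1 are shown because both were lower in the knockdown and both hold an E box. MTHFD1L is shown because its window holds both motifs and its intervals lay on opposite sides of 1 in the 2 arms. MTHFD2 and PSAT1 are shown because both were higher in the knockdown and PD0332991 and hold neither motif in this window.
MTHFD1 promoter (GRCh38.p14, chr14:64388103-64388352, plus strand): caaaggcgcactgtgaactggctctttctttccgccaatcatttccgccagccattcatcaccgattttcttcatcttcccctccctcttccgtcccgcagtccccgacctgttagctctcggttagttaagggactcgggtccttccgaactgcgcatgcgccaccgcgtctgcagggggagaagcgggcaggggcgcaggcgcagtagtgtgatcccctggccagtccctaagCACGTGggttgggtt
ALDH18A1 promoter (GRCh38.p14, chr10:95656712-95656961, minus strand): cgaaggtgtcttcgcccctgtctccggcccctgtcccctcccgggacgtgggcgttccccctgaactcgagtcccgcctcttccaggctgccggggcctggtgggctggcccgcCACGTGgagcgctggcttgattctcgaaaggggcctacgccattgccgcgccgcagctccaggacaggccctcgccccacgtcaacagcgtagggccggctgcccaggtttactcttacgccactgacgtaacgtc
MTHFD1L promoter (GRCh38.p14, chr6:150866236-150866485, plus strand): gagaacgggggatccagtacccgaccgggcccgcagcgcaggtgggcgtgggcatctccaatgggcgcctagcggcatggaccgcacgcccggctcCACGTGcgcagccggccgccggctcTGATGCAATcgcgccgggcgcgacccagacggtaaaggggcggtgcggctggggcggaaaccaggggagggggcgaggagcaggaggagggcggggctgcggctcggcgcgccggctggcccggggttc
MTHFD2 promoter (GRCh38.p14, chr2:74198365-74198614, plus strand): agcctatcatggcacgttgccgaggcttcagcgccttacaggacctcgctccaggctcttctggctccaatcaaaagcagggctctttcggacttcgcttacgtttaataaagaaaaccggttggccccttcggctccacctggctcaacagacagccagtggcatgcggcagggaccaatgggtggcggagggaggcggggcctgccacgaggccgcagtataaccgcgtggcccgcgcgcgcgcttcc
PSAT1 promoter (GRCh38.p14, chr9:78296875-78297124, plus strand): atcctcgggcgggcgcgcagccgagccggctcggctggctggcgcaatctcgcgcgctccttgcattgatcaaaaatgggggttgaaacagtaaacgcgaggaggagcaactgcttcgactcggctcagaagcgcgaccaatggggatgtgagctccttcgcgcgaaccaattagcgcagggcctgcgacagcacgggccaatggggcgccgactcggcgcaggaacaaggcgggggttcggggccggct
The E box began 15 bases before the start in MTHFD1, 136 bases before it in ALDH18A1 and 154 bases before it in MTHFD1L, where the amino acid response element began 129 bases before it. MTHFD1L has 4 windows in the table, 2 of which hold these matches, and the first is printed. The windows of PHGDH and SHMT1 held neither motif. A match describes letters and is not a measured binding site. The windows shown were picked by their motifs and values, so they cannot tell whether these go together, and a link was not tested.

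The 3 enzymes of serine synthesis were higher in both the knockdown and PD0332991 than in their controls, but by different amounts in each arm. PHGDH, the entry enzyme (chr1:119648411-119744226 of GRCh38 in GENCODE 29, as are the gene positions below), was at 113 CPM in DMSO, 231 in PD0332991, 146 in scrambled siRNA and 166 in the knockdown. Its fold change was 2.04 (95% interval 1.9 to 2.2) after PD0332991 and 1.13 (95% interval 1.06 to 1.21) in the knockdown. PHGDH was thus highest in PD0332991, and its difference in the knockdown was smaller than that of scrambled siRNA over DMSO, which was 1.29-fold (95% interval 1.19 to 1.4). PSAT1, the transaminase of the next step (chr9:78297143-78330093), was at 302 CPM in DMSO, 518 in PD0332991, 327 in scrambled siRNA and 702 in the knockdown. Here the knockdown stood highest, with a fold change of 2.14 (95% interval 2.06 to 2.23), against 1.72 (95% interval 1.64 to 1.8) after PD0332991 and 1.09 (95% interval 1.03 to 1.14) between the controls. PSPH, the phosphatase that releases serine (chr7:56011051-56051604), followed PSAT1 with 99.3, 142, 119 and 213 CPM in the same order. Its fold change was 1.78 (95% interval 1.67 to 1.91) in the knockdown and 1.43 (95% interval 1.32 to 1.56) after PD0332991. Within each library, where library size has no part, PSAT1 had 2.66 reads per PHGDH read in DMSO, 2.24 in PD0332991, 2.24 in scrambled siRNA and 4.24 in the knockdown. The ratio was therefore 1.89 times as high in the knockdown as in scrambled siRNA (95% interval 1.75 to 2.04) and 0.84 times after PD0332991 (95% interval 0.769 to 0.917). Between the controls, scrambled siRNA likewise stood at 0.841 times DMSO (95% interval 0.766 to 0.923). GENCODE 29 lists 4 pseudogenes of PSAT1 and 1 of PSPH, and reads of near-identical copies may be split in ways the counts cannot show.

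**Figure D1:**
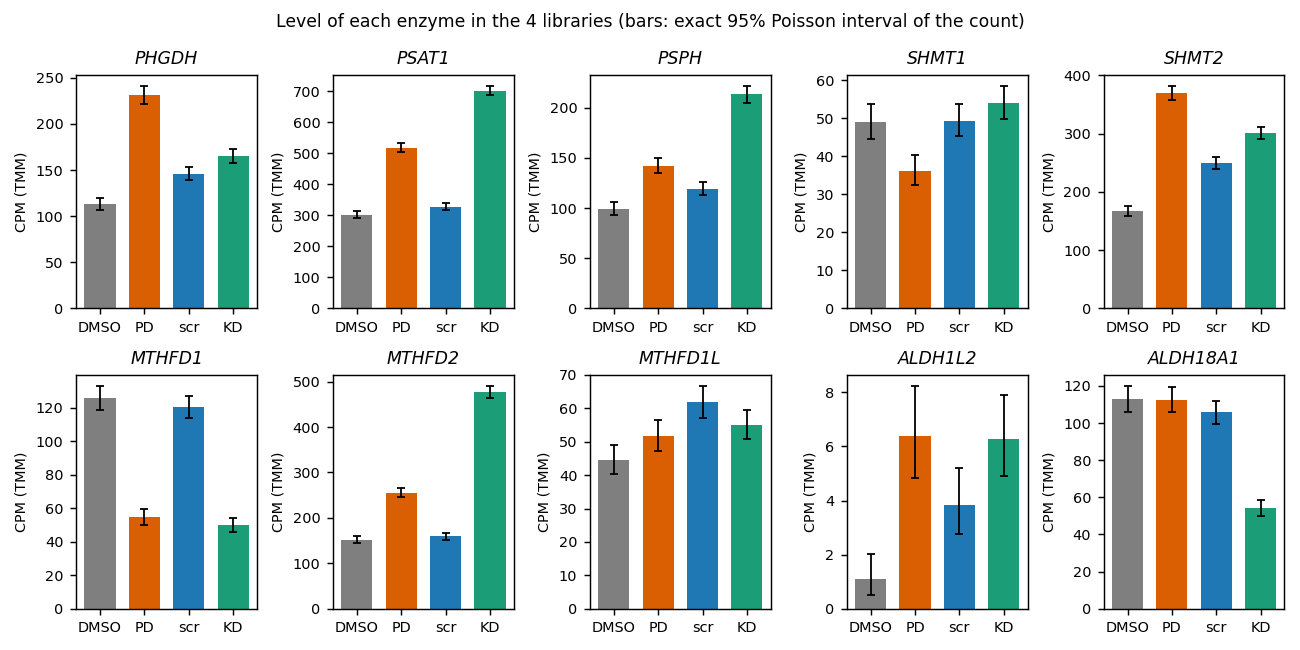
TMM-corrected CPM (y axis, from 0, a scale of its own in each panel) of the 10 enzymes in the DMSO, PD0332991 (PD), scrambled siRNA (scr) and CDK4/6 KD (KD) libraries. Bars are single libraries with exact 95% Poisson intervals of the count. MTHFD1 is the member lower in both PD and KD, while PSAT1, PSPH and MTHFD2 are highest in KD, and PHGDH and SHMT2 in PD.

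The serine hydroxymethyltransferases parted by compartment after PD0332991, but not clearly in the knockdown. The mitochondrial SHMT2 (chr12:57229327-57234935) was at 168 CPM in DMSO, 369.6 in PD0332991, 249.5 in scrambled siRNA and 301 in the knockdown. It was lowest in DMSO, and its fold change was 2.2 (95% interval 2.07 to 2.34) after PD0332991 and 1.21 (95% interval 1.15 to 1.27) in the knockdown, against 1.49 (95% interval 1.4 to 1.59) between the controls. The cytosolic SHMT1 (chr17:18327860-18363563) was at 49.0 CPM in DMSO, 36.1 in PD0332991, 49.3 in scrambled siRNA and 54.1 in the knockdown. It was lower after PD0332991 (fold change: 0.737, 95% interval 0.637 to 0.852), while the interval in the knockdown, 0.974 to 1.23, included 1. In reads within a library, SHMT2 to SHMT1 stood at 3.42 in DMSO, 10.2 in PD0332991, 5.06 in scrambled siRNA and 5.58 in the knockdown. This ratio was 2.99 times as high after PD0332991 as in DMSO (95% interval 2.56 to 3.49), and in the knockdown it was 1.1 times that of scrambled siRNA, with an interval of 0.971 to 1.25. Between the controls it was 1.48 times as high in scrambled siRNA as in DMSO (95% interval 1.28 to 1.7). Genes on the opposite strand run across the last 500 bases of both, SMCR8 at SHMT1 and NDUFA4L2 at SHMT2. Whether the counting used strand is not given in the sources used here. In the order DMSO, PD0332991, scrambled siRNA and knockdown, ACTA2 had 808, 1584, 1288 and 1434 reads. Its antisense gene ACTA2-AS1 had 807, 1582, 1285 and 1433, so the same reads may have been counted for both genes of that pair. NDUFA4L2 was counted with 161, 308, 251 and 301 reads in the order above, which put its fold change at 1.92 after PD0332991 and 1.13 in the knockdown, beside the 1532 to 3412 reads of SHMT2. SMCR8 had 242, 159, 181 and 272 reads. The part of shared reads in these values was not tested.

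MTHFD1, the cytosolic enzyme with 3 activities on THF (chr14:64388031-64463457), was the member that was lower in both arms by at least 2-fold. It had 1148 reads in DMSO, 497 in PD0332991, 1290 in scrambled siRNA and 566 in the knockdown, and the ratio between the controls had an interval that included 1 (0.885 to 1.04). The fold change was 0.415 (95% interval 0.375 to 0.458) in the knockdown and 0.435 (95% interval 0.39 to 0.483) after PD0332991, with overlapping intervals. Both control libraries thus lay above both libraries with CDK4/6 lowered or inhibited, at more than 2 times their level. The promoter window of MTHFD1 above holds an E box, as do those of ALDH18A1 and MTHFD1L, and any link of the motif to these values was not tested. ZBTB25, on the opposite strand at the 3′ end of MTHFD1, had at most 29 reads in any library, against 497 to 1290 for MTHFD1, and GENCODE 29 lists 1 pseudogene of MTHFD1.

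MTHFD2, the mitochondrial dehydrogenase and cyclohydrolase (chr2:74198562-74217565), went the other way. It was at 152 CPM in DMSO, 256 in PD0332991, 159.7 in scrambled siRNA and 478 in the knockdown. The knockdown was the highest and the controls lay together, with a fold change of 2.99 (95% interval 2.83 to 3.16) in the knockdown, 1.68 (95% interval 1.57 to 1.79) after PD0332991 and 1.05 (95% interval 0.975 to 1.13) between the controls. MTHFD2 had 1.21 reads per MTHFD1 read in DMSO, 1.32 in scrambled siRNA, 4.69 in PD0332991 and 9.55 in the knockdown. This ratio of mitochondrial to cytosolic enzyme was 7.21 times as high in the knockdown as in scrambled siRNA (95% interval 6.44 to 8.07) and 3.86 times as high in PD0332991 as in DMSO (95% interval 3.41 to 4.38). Between the 2 controls it differed by 1.09 times, with an interval of 0.982 to 1.21. Of the 7 pseudogenes of MTHFD2 in GENCODE 29, the tables list MTHFD2P1, with at most 6 reads. SLC4A5, which runs across the 3′ end of MTHFD2 on the opposite strand, had 176, 384, 189 and 480 reads in DMSO, PD0332991, scrambled siRNA and the knockdown, beside 1393, 2330, 1709 and 5406 for MTHFD2, and the part of shared reads was not tested.

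**Figure D2:**
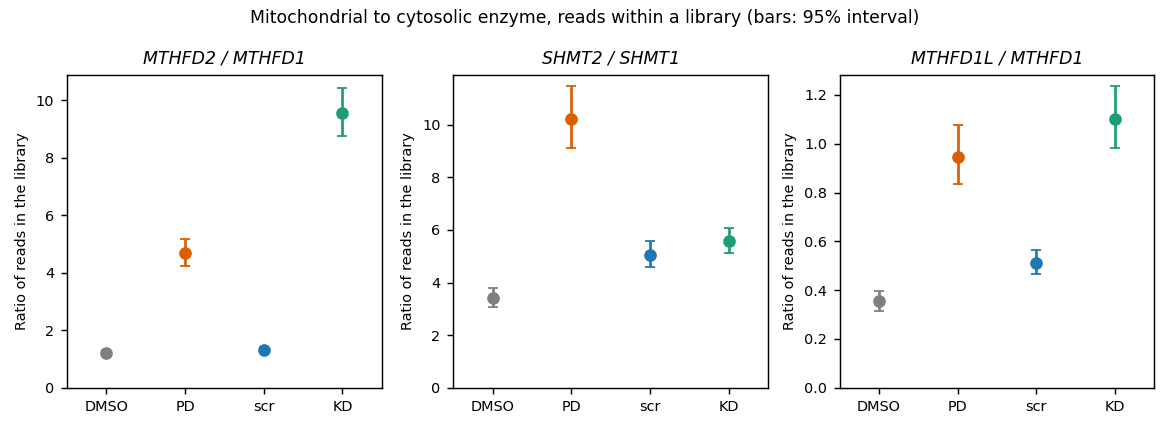
Ratio of reads within each library (y axes, from 0) of a mitochondrial to a cytosolic enzyme, for MTHFD2 to MTHFD1, SHMT2 to SHMT1 and MTHFD1L to MTHFD1, with 95% Clopper-Pearson intervals. The controls lie near each other at 1.21 and 1.32 for MTHFD2 to MTHFD1, below 4.69 in PD0332991 (PD) and 9.55 in CDK4/6 KD (KD). In the other panels the controls differ more. Scrambled siRNA stands at 1.48 times DMSO for SHMT2 to SHMT1 and at 1.45 times for MTHFD1L to MTHFD1.

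The other mitochondrial folate enzymes differed less or rested on few reads. MTHFD1L, the formate-releasing synthetase (chr6:150865549-151101887), was at 44.5 CPM in DMSO, 51.7 in PD0332991, 61.8 in scrambled siRNA and 55.1 in the knockdown. It was the 1 member whose intervals lay on opposite sides of 1 in the 2 arms, with a fold change of 0.892 (95% interval 0.799 to 0.997) in the knockdown and 1.16 (95% interval 1.01 to 1.33) after PD0332991. Both intervals came close to 1, and the control libraries differed more (fold change: 1.39, 95% interval 1.22 to 1.57). Set against MTHFD1 in the same library, MTHFD1L stood at 0.355 reads per MTHFD1 read in DMSO, 0.948 in PD0332991, 0.512 in scrambled siRNA and 1.1 in the knockdown. Between the controls this ratio was 1.45 times as high in scrambled siRNA as in DMSO (95% interval 1.25 to 1.67). ALDH1L2, which oxidizes 10-formyl-THF (chr12:105019784-105084577), had 10 reads in DMSO, 58 in PD0332991, 41 in scrambled siRNA and 71 in the knockdown. DMSO stood alone at the bottom, so that the fold change was 5.59 (95% interval 2.95 to 12.8) after PD0332991 and also 3.39 (95% interval 1.72 to 7.84) in scrambled siRNA, while the knockdown was 1.63 times scrambled siRNA (95% interval 1.1 to 2.47). C12orf45, on the opposite strand there, had 187 to 507 reads and was lower in both arms, with fold changes of 0.621 in the knockdown and 0.561 after PD0332991, and the part of shared reads was not tested.

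ALDH18A1, the proline enzyme of the list (chr10:95605929-95656706), was lower in the knockdown alone. It was at 113 CPM in DMSO, 112 in PD0332991 and 106 in scrambled siRNA, neighbours whose ratios all had intervals that included 1, and at 54.2 in the knockdown. The fold change was 0.513 (95% interval 0.464 to 0.567) in the knockdown and 0.997 (95% interval 0.913 to 1.09) after PD0332991. With a control of DMSO the fold change in the knockdown was 0.481. The next enzyme of that pathway, PYCR1, which is no member, was at 408 CPM in scrambled siRNA and 519.99 in the knockdown, and thus higher where ALDH18A1 was lower.

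**Figure D3:**
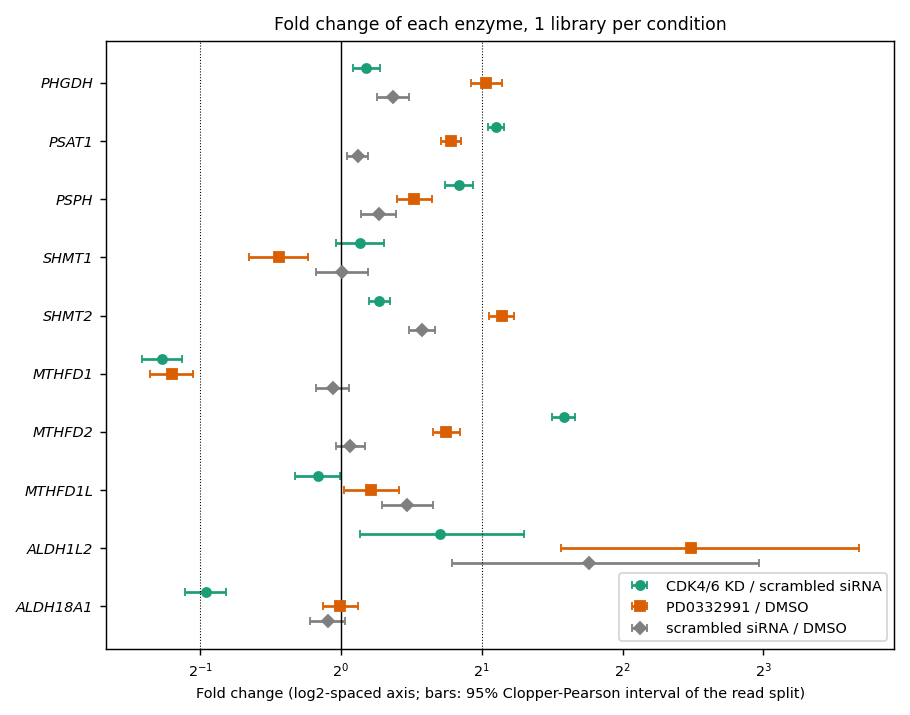
Fold change (x axis, spaced by log2) of each enzyme in CDK4/6 KD against scrambled siRNA (circles), PD0332991 against DMSO (squares) and scrambled siRNA against DMSO (diamonds), with 95% Clopper-Pearson intervals and dotted lines at 2-fold. MTHFD1 lies at 0.415 and 0.435 in the 2 arms and at 0.96 between the controls, and ALDH1L2 has the widest intervals.

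Summed by role, the 3 serine synthesis enzymes stood at 514 CPM in DMSO, 892 in PD0332991, 593 in scrambled siRNA and 1080.4 in the knockdown. The 4 mitochondrial folate enzymes stood at 366, 684, 475 and 840.4 CPM in that order, and the 2 cytosolic ones at 175, 90.7, 169.9 and 104. The first 2 sums were thus higher, and the cytosolic sum lower, in both libraries with CDK4/6 lowered or inhibited than in either control, but not every enzyme followed its sum. SHMT1 in the knockdown was not below the controls, and MTHFD1L was highest in scrambled siRNA.

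Over the list, 6 of the 10 members had an interval above 1 in the knockdown, where 30% of 13617 genes past the filter of 10 reads did, and 3 had one below 1, against 31.9% of genes. The shares of genes by interval, here and below, were not matched for reads. An interval clears 1 more easily at many reads, and members other than ALDH1L2 had at least 329 in every library. In the knockdown the interval of 1 member included 1, and those of 5192 of 13617 genes did. At 2-fold, 2 members were higher (PSAT1 and MTHFD2), against 9.19% of genes, and 1 was lower (MTHFD1), against 7.62%. After PD0332991, 7 members had an interval above 1, against 28.1% of 13443 genes, and 2 had one below 1, against 28.6%. Here 3 members were at least 2-fold higher (PHGDH, SHMT2 and ALDH1L2), against 7.49% of genes, and 1 was at least 2-fold lower (MTHFD1 again), against 7.06%. The median log2 fold change of the members was 0.23 in the knockdown and 0.63 after PD0332991, beside -0.0036 and 0.018 over all genes. The intervals of 6 members (PHGDH, PSAT1, PSPH, SHMT2, MTHFD2 and ALDH1L2) lay above 1 in both arms, which share no library, and those of 11.8% of 13099 genes did. MTHFD1 lay below 1 in both (14.2% of genes) and below by 2-fold in both (1.49%), and MTHFD1L lay on opposite sides (12.9%). No member was at least 2-fold higher in both, as 1.83% of genes were, since the members that passed 2-fold were different ones in each arm.

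The control libraries also differed at these genes. Between scrambled siRNA and DMSO, 6 members had an interval above 1, against 28.3% of 13303 genes, and none had one below 1, against 28%. ALDH1L2 was the 1 member at least 2-fold higher (5.3% of genes), and none was that much lower (6.64%). DMSO was the library with the lowest level of 7 of the 10 members, as it was for 23.8% of 13961 genes. With the controls exchanged, 4 members were at least 2-fold higher (8.04% of genes) and 2 lower (8.16%) in the knockdown than in DMSO. None was at least 2-fold higher in PD0332991 than in scrambled siRNA (10.6% of genes) and 1 was lower (8.17%), and here PHGDH, SHMT2 and ALDH1L2 had fold changes of 1.58, 1.48 and 1.65. MTHFD1 had fold changes of 0.398 and 0.453 in these comparisons. Proliferation genes differed between the same libraries. The summed level of 22 of them was 6589.8 CPM in DMSO, 933 in PD0332991, 4747 in scrambled siRNA and 2116 in the knockdown, and its part in the members' values was not tested.

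**Figure D4:**
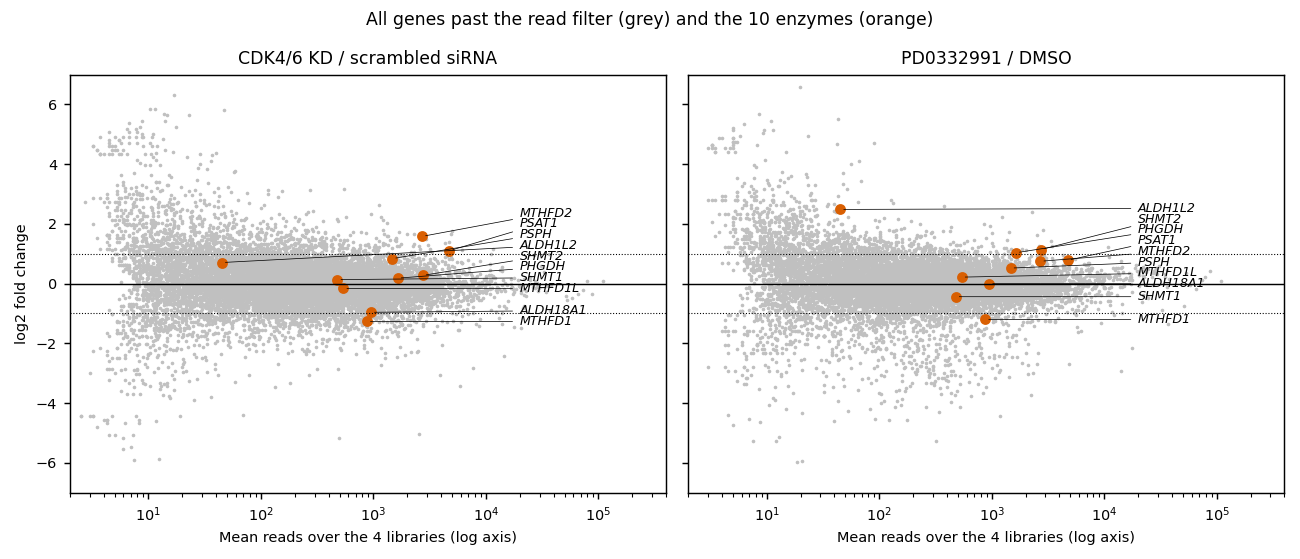
log2 fold change (y axis) against mean reads over the 4 libraries (log x axis) of all genes past the filter (grey) and of the 10 enzymes (orange, named), in CDK4/6 KD against scrambled siRNA and PD0332991 against DMSO. Dotted lines mark 2-fold, and the enzymes above the upper line are PSAT1 and MTHFD2 on one side and ALDH1L2, SHMT2 and PHGDH on the other.

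Genes that surround these enzymes were described from lists written for this purpose. Of 16 folate genes and carriers, 15 could be compared. In the knockdown 2 lay 2-fold or more above the control and 1 below, and after PD0332991 1 lay above and 3 below. Over all genes these shares were 9.19% above and 7.62% below in the knockdown, and 7.49% and 7.06% after PD0332991. SLC25A32, which carries folate into mitochondria, was at 37.2 CPM in scrambled siRNA and 7.24 in the knockdown (fold change: 0.196, 95% interval 0.152 to 0.248), opposite to MTHFD2 inside them, and had a fold change of 0.582 after PD0332991. TYMS, thymidylate synthase, had a fold change of 0.331 after PD0332991 (95% interval 0.303 to 0.361) and of 0.874 in the knockdown, where scrambled siRNA was itself at 0.558 times DMSO. The purine synthesis enzymes, which use the carbon unit, had fold changes below 1 at all 12 in the knockdown, with a median log2 fold change of -0.59, where 6843 of 13617 genes were below 1. After PD0332991 10 of 12 were below 1, with a median of -0.67, beside 6507 of 13443 genes. PPAT, the first committed step, was at 0.48 times scrambled siRNA, and PRPS2 and GMPS at 0.299 and 0.414 times DMSO after PD0332991.

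On the side of serine and glycine use, SDSL, a serine dehydratase-like enzyme, was higher in the knockdown (fold change: 4.02, 95% interval 2.64 to 6.5) and after PD0332991 (fold change: 3.8, 95% interval 2.37 to 6.59), on 26 and 21 reads in the controls. AGXT, which makes glycine from glyoxylate, was 2.07-fold higher in the knockdown, and DMGDH, which feeds carbon units from choline breakdown, 2.59-fold higher after PD0332991. DMGDH had few reads, with 21 in DMSO, 55 in PD0332991, 51 in scrambled siRNA and 48 in the knockdown. DMSO thus stood lowest, also below scrambled siRNA (2.30 against 4.77 CPM). Of the 13 measured genes of that list, 3 were past 2-fold upward in each arm (9.19% of all genes in the knockdown and 7.49% after PD0332991) and none downward (7.62% and 7.06%). CTH, which makes cysteine at the end of the pathway that draws on serine, was higher in both arms, with 10.0 CPM in scrambled siRNA, 29.8 in the knockdown, 8.43 in DMSO and 23.8 in PD0332991. It was the 1 gene at least 2-fold higher in each arm of the 16 in the methionine and transsulfuration list. Of all genes, 9.19% were that much higher in the knockdown and 7.49% after PD0332991. In the list 2 were at least 2-fold lower in the knockdown (7.62% of all genes) and 1 after PD0332991 (7.06%). MTAP was at 0.487 times its control in the knockdown, and BHMT at 0.353 times, on 33 and 12 reads. After PD0332991 BHMT was at 0.247 times its control, on 8 reads. The median log2 fold change of the list was -0.29 in the knockdown. Of 11 transporters, SLC6A9, a glycine carrier, was 3.58-fold higher in the knockdown (95% interval 2.95 to 4.38) and 3.21-fold higher after PD0332991 (95% interval 2.63 to 3.97). SLC38A4 was 4.86-fold higher in the knockdown on 22 and 115 reads. Its scrambled siRNA level, 2.06 CPM, was itself below the 4.49 CPM of DMSO, against 10.2 in the knockdown. In the list of proline and glutamate enzymes, OAT was 2.31-fold higher in the knockdown, with scrambled siRNA at 0.422 times DMSO, and PRODH2 was 2.42-fold higher after PD0332991.

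Of 20 genes of the amino acid response, 6 were at least 2-fold higher and 1 lower in the knockdown, and 8 of the 19 that passed were higher and none lower after PD0332991. Of all genes, 9.19% were that much higher and 7.62% lower in the knockdown, and 7.49% and 7.06% after PD0332991. The list had a median log2 fold change of 0.62 and 0.93 in the 2 arms, and of 0.58 between the controls. ATF4 mRNA was at 579 CPM in DMSO, 1352 in PD0332991, 988 in scrambled siRNA and 1339.99 in the knockdown, so that it was lowest in DMSO, as were 7 of the 10 members and 23.8% of genes. ASNS, asparagine synthetase, was 5.21-fold higher after PD0332991 (95% interval 4.77 to 5.71) and 3.19-fold higher in the knockdown (95% interval 3.0 to 3.4). NUPR1 was 4.69-fold higher after PD0332991, and VLDLR and CHAC1 were 9.31-fold and 6.38-fold higher in the knockdown, on 15 and 7 reads in scrambled siRNA. SLC7A5, an amino acid carrier, was the gene of this list at least 2-fold lower in the knockdown (fold change: 0.395).

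**Figure D5:**
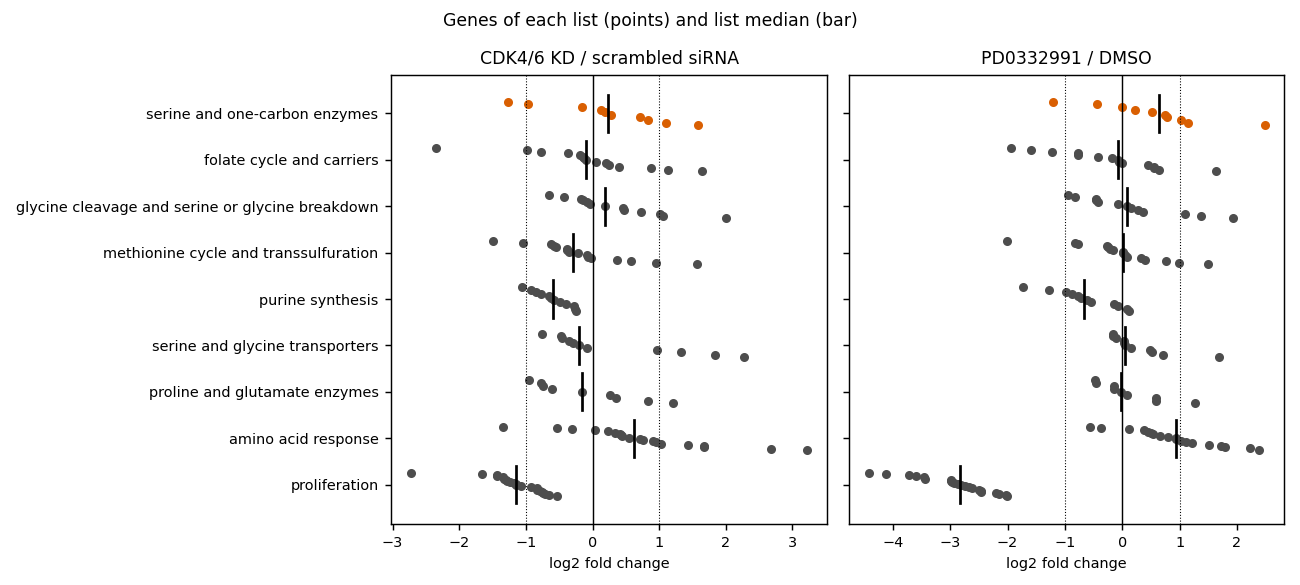
log2 fold change (x axes) of the genes of each list that passed the filter (points, spread vertically for legibility) with the list median (bar), in CDK4/6 KD against scrambled siRNA and PD0332991 against DMSO, dotted lines marking 2-fold. The 10 enzymes (orange) spread to both sides, from 0.415-fold to 2.99-fold in CDK4/6 KD and from 0.435-fold to 5.59-fold after PD0332991, while the purine synthesis points lie below 0 in CDK4/6 KD.

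The profiles of the members over the 4 libraries fell into a few shapes. Likeness was measured as the distance between log2 CPM values centred on each gene's mean, over the 4 libraries for genes averaging 500 reads or more, and is a description. Among 4125 genes, SHMT2 ranked 13th from PHGDH (distance: 0.22) and PHGDH ranked 9th from SHMT2, both being highest in PD0332991. PSPH ranked 14th and MTHFD2 ranked 43rd from PSAT1, and PSAT1 ranked 5th from MTHFD2 (distance: 0.4), these 3 being highest in the knockdown. MTHFD1 ranked 4000th or beyond from PHGDH, PSAT1, SHMT2 and MTHFD2. The genes nearest to PHGDH were ACTA2-AS1 and ACTA2, overlapping genes with nearly the same reads (807 and 808 in DMSO), and GRN. Those nearest to PSAT1 were KDM4A, UBE2H and C4BPB, those nearest to SHMT2 were MSRB2, KIAA0319L and BCAT1, and those nearest to MTHFD2 were FGA, ITGB2 and APOC3.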

How the data were processed

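Total RNA of HepG2 cells was sequenced with the QuantSeq 3′ mRNA kit on a NextSeq 500, which gives reads near the poly(A) tail. What the authors deposited is a table of raw counts by gene symbol for each library, not normalized, and their processing notes name Bowtie2, edgeR and hg19 with no role. The counter, the annotation and the use of strand are not given in the sources used here. Totals were 8983848 to 11176880 reads. Each table holds 25737 entries, and counts of the 286 repeated symbols were summed.

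Conditions were taken from the sample titles. The members and all lists were chosen with earlier results of these data known, and the promoter motifs and read ratios after the values. TMM factors came from edgeR 4.0.16 (R 4.3.3). Before fold changes were taken, 0.5 reads, scaled to library size, were added, and a gene needed 10 reads in at least 1 of the libraries compared. Intervals used scipy 1.17.1; intervals of a ratio of ratios are normal on the log scale. At 3 reads or fewer a gene was taken to be at the floor. No test was run, since a quasi-likelihood fit in edgeR needs replicates and each condition has 1 library. The procedure was checked on simulated data.

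Named genes were CDK4, CDK6, the members, the 2 per list and comparison past 2-fold whose interval end nearest to 1 lay farthest from it, and the 3 with the most like profile. Some genes that this rule names are not reported here. PYCR1, ATF4, SLC7A5 and the genes overlapping a member were named after their values were seen. Alternatives were DESeq2 1.42.0 size factors, total counts, quantile normalization (limma 3.58.1), 5 added reads, the other control, other filters (50 reads or none), other thresholds and keeping a repeated symbol's most counted entry. Positions are from GENCODE 29 and promoters from RefSeq, both on GRCh38, and were matched by symbol.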

Additional observations from a re-analysis of the deposited data

How the results depend on the processing

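Several alternatives left the counts of members past 2-fold the same. They were DESeq2 size factors, quantile normalization, 5 added reads, filters of 50 reads or none and keeping a repeated symbol's most counted entry. Under them the median log2 fold change of the members stayed between the medians of the members' lower and upper interval ends. These ends were 0.11 and 0.32 in CDK4/6 KD and 0.53 and 0.75 after PD0332991, and are not an interval of the median itself. The control mattered most. With the control library of the other arm, the median log2 fold change of the members moved from 0.23 to 0.70 in CDK4/6 KD and from 0.63 to 0.41 after PD0332991, the members at least 2-fold higher went from 2 to 4 and from 3 to 0, and those lower in CDK4/6 KD from 1 to 2. MTHFD1L changed direction there, to 0.31 on the log2 scale for CDK4/6 KD and to -0.26 for PD0332991. These values change because the scrambled siRNA and DMSO libraries differ at the members. Total counts alone, which shifted the median of all genes to 0.10, moved the CDK4/6 KD median to 0.33. At a threshold of 1.5-fold, CDK4/6 KD had 4 members higher and 2 lower, and PD0332991 had 5 higher and 1 lower. The share of all genes past 1.5-fold was not taken, so these counts have no background to be read against. No paired analysis was possible because each condition has 1 library. Depth limits ALDH1L2 most, which had 10 reads in DMSO.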
